A study of Mus musculus with 16 samples.

Results

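The immunoglobulin and B-lineage genes Ighm, Igkc, Cd79a, Cd79b and Ms4a1 were measured in sorted mouse CD8+ T cells, and the isoform that carried the Ighm counts was determined. The 5 genes were taken by their symbol from the 55536 annotated genes, and all 5 passed the filter on low counts that left 16650 genes. They had been selected on their counts in these 16 libraries, with the difference between the groups known, so their levels and fold changes between groups are a description and carry no test. The cells came from OT-I mice, which carry a transgenic T cell receptor for the ovalbumin peptide SIINFEKL and are, per the study's methods, Rag1- or Rag2-deficient, so that they cannot rearrange immunoglobulin genes of their own. The cells were electroporated in bulk, with no clone picked, with Cas9 and either a scrambled guide (Control gRNA, 8 libraries) or a guide against Tardbp (Tardbp gRNA, 8 libraries). Tardbp encodes the RNA-binding protein TDP-43. All cells were then transferred into C57BL/6J mice, which have B cells of their own, and all recipients were given SIINFEKL with the agonist antibodies anti-OX40 and anti-41BB. Spleen and lymph nodes were taken on day 4 by the labels, somewhat earlier by the methods, and live CD8+ cells with the donor's CD45 markers were sorted. The study's results also mention a stimulation of the purified cells, and whether the sequenced cells received it is not clear. Donors and recipients were of both sexes, and the methods give 1 age range for all mice of the study, from young to mature. A deposited letter for sex gives 3 M and 5 F for the Control gRNA libraries. For those of Tardbp gRNA it gives 5 M and 3 F. The methods name 8 individual recipients, but no label ties a library to a recipient, so p-values below measure the spread between these libraries, which may in part be technical.

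In B cells, Ighm encodes the constant region of the mu heavy chain and Igkc that of the kappa light chain. A mature message of either joins a rearranged variable (V) segment to the constant region. Cd79a and Cd79b encode the paired signalling chains of the B cell receptor, and Ms4a1 encodes the surface protein CD20. The mu gene makes a membrane and a secreted form from the same primary transcript. The secreted form ends in an extended last constant exon, whereas the membrane form is spliced from inside that exon to further exons that encode the transmembrane stretch. The immunoglobulin heavy chain locus can also be transcribed without a joined V segment, and such germline transcripts of the constant region are known from T cells.

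The ends of the coding sequence that tell the Ighm forms apart are shown because the counts of the 2 forms behaved differently. Ighm (ENSMUSG00000076617.9) lies on the minus strand at chr12:113418558-113422730 in GRCm38. Sequences are from the GENCODE M21 transcripts, 5′ to 3′, with the last 30 shared coding bases in lower case and the bases of the named form alone in capitals. Those of the secreted form are the 62 coding bases at chr12:113420867-113420928, inside its last exon and ending in a stop codon. Those of the membrane form are the 116 bases of the exon at chr12:113418953-113419068, which is followed by a last exon with 9 coding bases.
Ighm-201, secreted: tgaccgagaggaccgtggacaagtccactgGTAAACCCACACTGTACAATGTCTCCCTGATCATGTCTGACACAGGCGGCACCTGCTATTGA
Ighm-202, membrane: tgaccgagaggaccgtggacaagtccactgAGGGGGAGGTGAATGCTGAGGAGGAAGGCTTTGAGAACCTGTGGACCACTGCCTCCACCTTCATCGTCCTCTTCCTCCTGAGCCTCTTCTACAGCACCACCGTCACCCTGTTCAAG
The capitals of the secreted form open with GT, the bases at which the membrane form is spliced away. Both annotated forms start at the constant region, as does Igkc, so a count in either gene does not show which V segment, if any, was joined to it.

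Counts in genes per library ran from 73649630 to 93893357 for Control gRNA and from 56016533 to 94801105 for Tardbp gRNA. Levels are given as CPM, the library's counts scaled to a common total by the trimmed mean of M-values, and levels of different genes were compared as FPKM, which is CPM per kilobase of annotated exon. The targeted gene Tardbp had 192.4 ± 13.3 CPM in Control gRNA and 134.9 ± 11.3 CPM in Tardbp gRNA (SD, n = 8 each), with no overlap (log2 fold change -0.51, edgeR adjusted p = 8.07e-07). The T cell genes Cd3e, Trac and Cd8b1 were high in all libraries. The RNA concentration before dilution, deposited without a unit, was 34.9 to 197.1 for the Control gRNA libraries and 10.1 to 24 for those of Tardbp gRNA. These ranges do not overlap, so RNA concentration and guide cannot be told apart. Libraries numbered 1 to 3 stood apart from those numbered 4 to 8 in both groups on the second principal component of log2 CPM (8.60% of the variance), although no label names such a division. Fold changes of the 5 genes are therefore also given within each set of numbers.

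Ighm was by far the most abundant of the 5 genes and was higher in every Tardbp gRNA library than in any Control gRNA library. Control gRNA libraries C1 to C8 had 421.2, 367.0, 452.3, 409.3, 382.9, 403.3, 384.2 and 410.0 CPM. Tardbp gRNA libraries T1 to T8 had 635.9, 533.6, 635.3, 698.2, 622.3, 678.1, 682.2 and 637.5 CPM. The group means were 403.8 ± 26.5 and 640.4 ± 51.1 CPM (SD, n = 8 each), a log2 fold change of 0.67 (SE 0.052). Over all tested genes the median log2 fold change was 0.05. Groups without overlap and higher in Tardbp gRNA were found for 6.61% of tested genes, and among the 5 genes for Ighm. In FPKM, Ighm ranked 212 of 16650 tested genes. The lowest library of each group for Ighm was the one numbered 2. The log2 fold change was 0.51 within the libraries numbered 1 to 3 and 0.73 within those numbered 4 to 8.

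**Figure D1:**
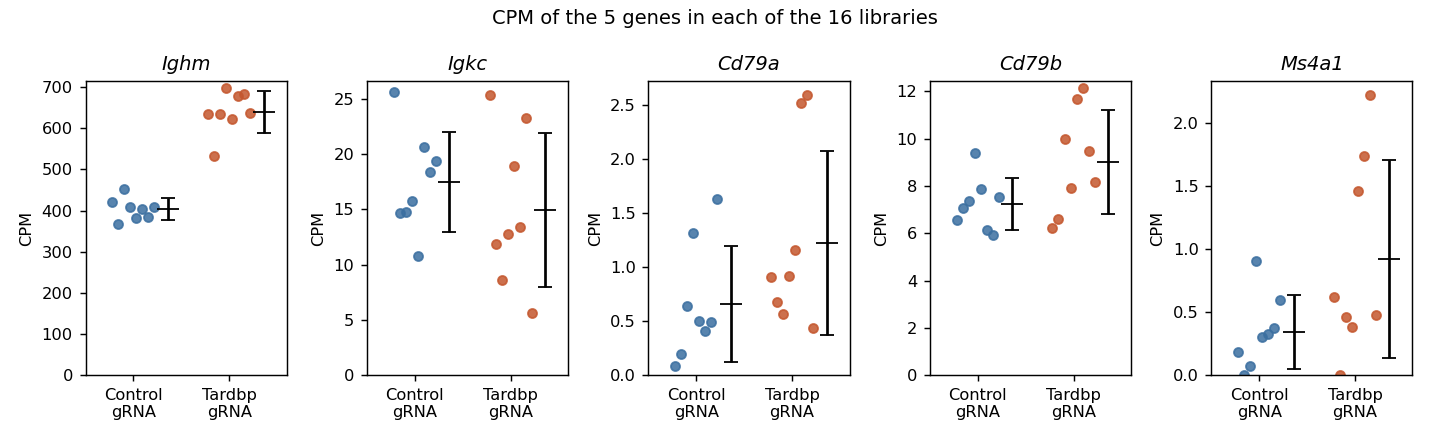
CPM of Ighm, Igkc, Cd79a, Cd79b and Ms4a1 (linear axes from 0) in the 8 Control gRNA libraries (blue) and the 8 Tardbp gRNA libraries (orange), in the order of their numbers, with the mean and SD beside them. For Ighm the lowest Tardbp gRNA library (533.6 CPM) lies above the highest Control gRNA library (452.3 CPM), and the groups overlap for the other 4 genes.

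The membrane form carried most of the Ighm counts in every library, and nearly all of the difference between the groups lay in it. Ighm-202, the membrane form with 6 exons, had 279.3 ± 20.03 CPM in Control gRNA (252.5 to 310.7) and 505.9 ± 43.7 CPM in Tardbp gRNA (415.7 to 554.3; SD, n = 8 each). Ighm-201, the secreted form with 4 exons, had 124.5 ± 10.9 CPM in Control gRNA (109.2 to 141.5) and 134.4 ± 10.3 CPM in Tardbp gRNA (117.9 to 143.9). The ranges of the membrane form therefore did not overlap between groups, and those of the secreted form did. As a share of Ighm counts, the membrane form took 72.6, 68.8, 68.7, 68.3, 71.5, 68.1, 67.9 and 67.5% in C1 to C8. It took 77.9, 77.9, 79.6, 79.4, 77.6, 79.3, 79.1 and 81.0% in T1 to T8. Every Tardbp gRNA library was above every Control gRNA library, with means of 69.2 ± 1.84% and 79.0 ± 1.15% (SD, n = 8 each). The mean shares per base of transcript, which allow for the greater length of Ighm-202, were 66.4 and 76.8%.

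For comparison, 17496 transcripts of 6864 genes had a share of 5 to 95% in their gene and a mean gene count of at least 50 in each group. Of these, 0.720% had a share that was higher in Tardbp gRNA without overlap, and 0.503% one that was lower. The difference of the membrane share was 9.81 percentage points, and 8.77% of the transcripts had a rise of that size or more. Genes with few counts separate less readily, and Ighm is among the genes with many. The 2 forms share most of their bases, so their counts rest on how the counting assigned shared reads.

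**Figure D2:**
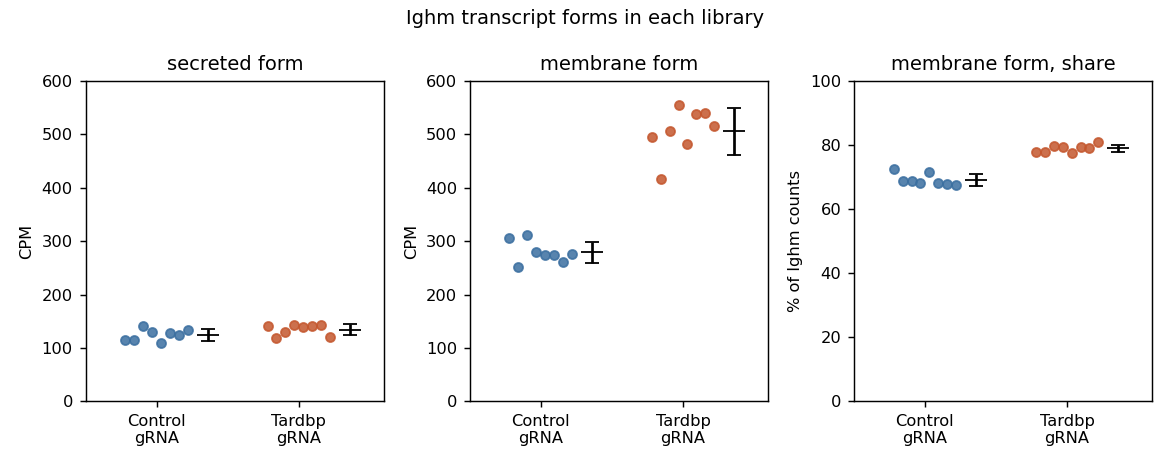
CPM of the secreted and the membrane form of Ighm, and the membrane form as % of Ighm counts, in each of the 8 libraries per group with the mean and SD beside them. The secreted form lies between 109.2 and 143.9 CPM in all 16 libraries, and the membrane form and its share are higher in Tardbp gRNA with no overlap.

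Splicing inside Ighm was near complete in both groups. Psi, the fraction of messages that include a node, is the authors' value per group of 8 libraries and has no error. For the 4 internal nodes of Ighm it lay between 0.9992 and 0.9997 in both groups. The node of the membrane exon had 0.9992 in Control gRNA and 0.9996 in Tardbp gRNA. The secreted form ends before that exon and has no junction that skips it, so this Psi does not measure the balance of the forms.

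Igkc, the kappa light chain constant gene (ENSMUSG00000076609.2, plus strand, chr6:70726435-70726966), was the next most abundant and did not follow Ighm. Control gRNA libraries C1 to C8 had 25.6, 14.7, 14.8, 15.8, 10.8, 20.6, 18.3 and 19.4 CPM. Tardbp gRNA libraries T1 to T8 had 25.3, 11.9, 8.60, 12.7, 18.9, 13.4, 23.3 and 5.60 CPM. The groups overlapped, with T3 and T8 below every Control gRNA library, and the log2 fold change was -0.22 (SE 0.250), or -0.29 within numbers 1 to 3 and -0.20 within 4 to 8. In FPKM, Ighm exceeded Igkc by a ratio of 4.64 to 9.96 among Control gRNA libraries and of 7.08 to 32.1 among Tardbp gRNA libraries.

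The genes of the receptor's signalling chains were both lower than the constant genes and unlike each other. Cd79b (ENSMUSG00000040592.11, minus strand, chr11:106311341-106314762) was detected at a steady low level, with 6.58, 7.08, 7.36, 9.39, 7.86, 6.15, 5.92 and 7.52 CPM in C1 to C8. In T1 to T8 it had 6.22, 6.60, 9.98, 7.92, 11.7, 12.1, 9.51 and 8.18 CPM. The groups overlapped, at a log2 fold change of 0.32 (SE 0.138), which was 0.08 within numbers 1 to 3 and 0.42 within 4 to 8, and the 4 highest values over all libraries were in T3, T5, T6 and T7. Cd79a (ENSMUSG00000003379.7, plus strand, chr7:24897381-24902197) was about an order of magnitude lower, with 0.0853, 0.201, 0.638, 1.31, 0.503, 0.406, 0.492 and 1.63 CPM in C1 to C8. In T1 to T8 it had 0.911, 0.675, 0.564, 0.919, 1.16, 2.52, 2.60 and 0.442 CPM. The log2 fold change of Cd79a was 0.89 (SE 0.497), 1.19 within numbers 1 to 3 and 0.81 within 4 to 8, and it turned to -0.59 with log2 RNA concentration in the fit. The coefficient of variation was 81.8% in Control gRNA and 69.8% in Tardbp gRNA, against 15.2 and 24.2% for Cd79b.

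Cd79b was the only one of the 5 genes besides Ighm with more than 1 form at a sizeable share. Cd79b-201 held 48.1 ± 9.97% of the gene's counts in Control gRNA and 52.3 ± 9.69% in Tardbp gRNA (SD, n = 8 each), and Cd79b-202, which starts further downstream, held the rest. The ranges were 35.9 to 63.7% in both groups. The authors' Psi of the upstream start node was 0.624 in Control gRNA and 0.443 in Tardbp gRNA, and that of the next start node 0.376 and 0.558, the opposite direction to the mean share of counts. At the other end of the gene, Psi of the end node reached by both forms was 0.991 and 0.747, and that of the 3 bases beyond it, in Cd79b-201 alone, 0.00959 and 0.253, the same direction as the mean share of counts. At 463 to 1080 Cd79b counts per library, and with no error on Psi, the balance of the forms was not resolved. The 4 internal exons had Psi between 0.935 and 0.985.

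Ms4a1 (ENSMUSG00000024673.9, minus strand, chr19:11249675-11266241), the CD20 gene and a usual marker of mature B cells, had the lowest mean CPM of the 5 genes in both groups. It had 0.185, 0, 0.0736, 0.910, 0.306, 0.329, 0.375 and 0.596 CPM in C1 to C8. It had 0.620, 0, 0.463, 0.382, 1.46, 1.74, 2.22 and 0.477 CPM in T1 to T8. A count of 0 allows up to 0.0320 to 0.0407 CPM in a Control gRNA library and 0.0316 to 0.0536 in a Tardbp gRNA library (3 counts, counting error only). The library numbered 2 of each group had no Ms4a1 count and had the lowest Ighm of its group, at 367.0 and 533.6 CPM. The log2 fold change was 1.40 with an SE of 0.733, and 2.03 within numbers 1 to 3 and 1.32 within 4 to 8. In both groups the mean was lower in the libraries numbered 1 to 3 than in those numbered 4 to 8, at 0.0861 and 0.503 CPM for Control gRNA and 0.361 and 1.26 CPM for Tardbp gRNA. All 32 counts in C7 were assigned to retained-intron transcripts, 26 of them to Ms4a1-202 and 6 to Ms4a1-203, and none to the coding transcript Ms4a1-201.

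In level per length the genes followed the same order in every library of both groups, Ighm over Igkc over Cd79b over Cd79a over Ms4a1. Mean FPKM in Control gRNA and Tardbp gRNA was 214.1 and 339.5 for Ighm, 32.9 and 28.1 for Igkc, and 5.06 and 6.31 for Cd79b. It was 0.452 and 0.839 for Cd79a, and 0.0561 and 0.149 for Ms4a1. Only the ranges of Cd79a and Ms4a1 overlapped between neighbours in this order. Set beside T cell genes, Ighm FPKM exceeded that of Cd3e, which was 142 in Control gRNA and 192 in Tardbp gRNA. That order rests on the annotated exon length, 4080 bases for Cd3e and 1886 for Ighm. In CPM the order was the reverse, with Cd3e at 577.6 and 781.5 and Ighm at 403.8 and 640.4. Ighm FPKM was below that of Cd8b1, at 562 and 896.

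Some genes that define B cells were at or near 0 beside this level of Ighm, and others were not. Mean levels in Control gRNA and Tardbp gRNA were 0.108 and 0.126 CPM for the B cell surface gene Fcrla. For Cd22 they were 11.3 and 21.2 CPM. Pax5, the transcription factor that fixes B cell identity, had 2 counts in all 16 libraries together. Ebf1, another transcription factor of early B cells, had 97 counts in all, and did not pass the filter. The ratio of Ighm to Cd79b in FPKM was 43.1 ± 6.33 in Control gRNA and 56.3 ± 12.6 in Tardbp gRNA (SD, n = 8 each). Fewer B cells and less RNA per cell cannot be told apart in bulk RNA, and the share of B cells in the sorted cells was not measured here.

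**Figure D3:**
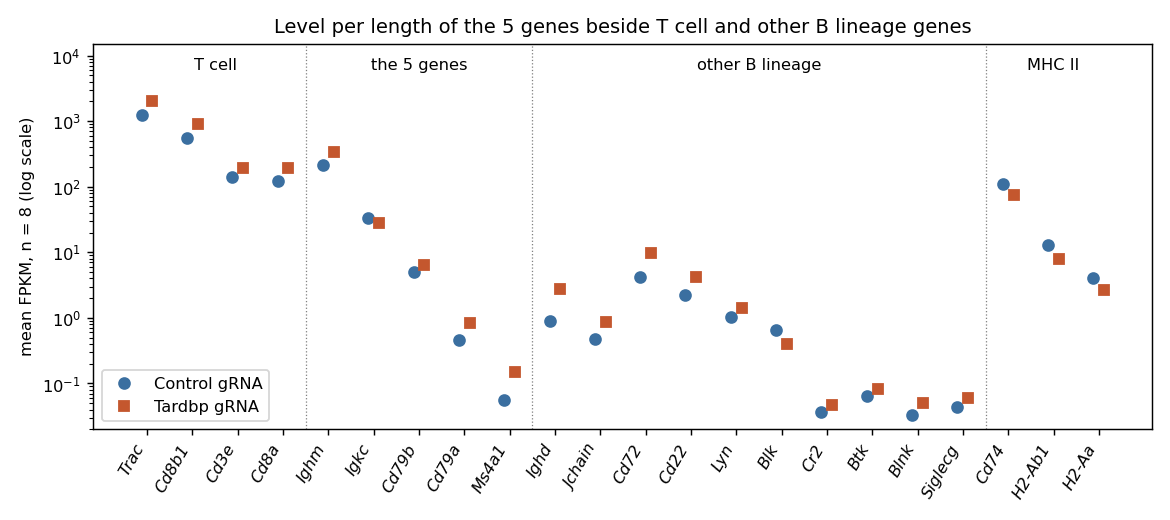
Mean FPKM (log axis, n = 8 libraries per group) of T cell genes, the 5 genes, other B-lineage genes and MHC class II genes in Control gRNA (circles) and Tardbp gRNA (squares). Ighm, at 214.1 and 339.5, lies among the T cell genes, and Cd79a and Ms4a1 lie below 1.

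V segments were scarce beside the constant genes. The 113 heavy chain V genes (Ighv) together had 1.83 ± 1.17 CPM in Control gRNA and 2.82 ± 2.37 CPM in Tardbp gRNA (SD, n = 8 each), and 69 of them had any count. Per length, Ighm exceeded the summed Ighv genes by a ratio of 62.3 ± 37.2 for the Control gRNA libraries and 75.1 ± 47.8 for the Tardbp gRNA libraries, with a lowest value of 15.8. Igkc exceeded the 100 kappa V genes (Igkv) by a ratio of only 4.89 ± 2.85 and 2.99 ± 1.71. Heavy and light chain constant genes therefore stood at different ratios to their V genes in the same libraries. The 3 V genes with the highest mean CPM were Iglv1 (0.776 in Control gRNA, 0.389 in Tardbp gRNA), Igkv1-110 (0.325 and 0.581) and Igkv14-126 (0.292 and 0.610). Single libraries carried these means. Without C8, Iglv1 had 0.334 CPM in Control gRNA and Igkv1-110 0.158, and without C2, Igkv14-126 had 0.134. In Tardbp gRNA, Igkv1-110 had 0.269 CPM without T5 and Igkv14-126 0.275 without T7. Over all V genes the sum ranged from 2.47 to 13.1 CPM among Control gRNA libraries and from 2.08 to 17.8 CPM among Tardbp gRNA libraries. The lines of the heavy chain joining segments (Ighj), which lie just upstream of Ighm, summed to 0.457 to 1.15 CPM among Control gRNA libraries and 1.41 to 2.59 CPM among Tardbp gRNA libraries, without overlap. Of single tested genes, 6.61% were higher in Tardbp gRNA without overlap. Only 2 of the 4 Ighj genes passed the filter on low counts. Ighm made up 93.2 ± 1.598 and 94.5 ± 2.56% of the counts of all immunoglobulin genes.

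To ask whether other genes of the B lineage differed between the groups, 73 genes of that lineage were followed, of which 56 were tested with edgeR. Adjusted p was under 0.05 for 46.7% of all tested genes, with 23.5% higher and 23.3% lower in Tardbp gRNA. Of the 56 genes, 15 were called higher (26.8%), 1 lower and 40 were not called. At an unadjusted p under 0.05, 17 were higher and 4 lower. Their median log2 fold change was 0.30. The share called higher was close to that of all genes, and the share called lower, at 1.79%, was below the 23.3% of all genes. Where log2 RNA concentration was added to the fit, 3 of them were called higher, and the calls over all genes fell to 2697 in both directions together.

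Among the other immunoglobulin constant genes, 6 of 11 were tested, with 3 called higher and 0 lower, also by DESeq2 and at an unadjusted p under 0.05. The 3 are 50% of those tested, against 23.5% of all tested genes called higher. Ighd, the delta constant gene next to Ighm that is transcribed with it in mature B cells, rose from 1.71 ± 0.378 (1.23 to 2.09) to 5.28 ± 1.58 CPM (3.49 to 7.79; SD, n = 8 each). Its log2 fold change was 1.62 (SE 0.184, edgeR adjusted p = 1.26e-06) and the groups did not overlap. Ighg3, a gamma constant gene, rose from 0.110 to 0.471 mean CPM (edgeR adjusted p = 0.0173), and Iglc2, a lambda constant gene, from 0.471 to 1.37 mean CPM (edgeR adjusted p = 0.0497), both at low counts. The Iglc2 mean of Tardbp gRNA rests on T8, at 5.27 CPM, and was 0.817 CPM without it, where the edgeR adjusted p was no longer under 0.05. The call of Iglc2 was also lost without any one of C1, C2, C3, C5, C6, C7, T5, T6 and T7. Jchain, which joins IgM and IgA into polymers, had 1.22 ± 0.714 and 2.15 ± 1.63 CPM (edgeR adjusted p = 0.188).

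Genes of B cell receptor signalling were all tested, and 4 of 15 rose (26.7%) while 1 fell (6.67%). Of all tested genes, 23.5% were called higher and 23.3% lower. Cd72, an inhibitory receptor, rose from 14.3 ± 6.95 to 33.6 ± 6.54 CPM (log2 fold change 1.23, edgeR adjusted p = 0.000172). Cd22, an inhibitory lectin receptor, rose from 11.3 ± 5.21 to 21.2 ± 2.40 CPM (log2 fold change 0.91, edgeR adjusted p = 0.00408). In FPKM, Cd72 was at 4.19 and 9.83 and Cd22 at 2.23 and 4.20, both well above Ms4a1. The adaptor Bank1 (edgeR adjusted p = 0.0082) and the kinase Lyn (edgeR adjusted p = 0.0493) also rose, and the phospholipase Plcg2 fell from 30.1 to 19.0 CPM (edgeR adjusted p = 0.000308). The call of Lyn was lost without any one of C1, C2, C5 to C8, T1, T2, T4, T5, T6 and T8, at an edgeR adjusted p of up to 0.136. Btk, Blnk, Syk and Siglecg had edgeR adjusted p of 0.391 to 0.857.

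Of the B cell surface genes, Cd37, Tnfrsf13b and Cxcr5 were called higher among 9 tested, and 0 were called lower, also by DESeq2 and at an unadjusted p under 0.05. The share called higher was 33.3% of these, against 23.5% of all tested genes. It was 28.6% for the transcription factors, 25% for the pre-B genes and 20% for the MHC class II genes below. Cd37, a tetraspanin also found on T cells, rose from 80.2 ± 15.8 to 131.3 ± 11.6 CPM (log2 fold change 0.71, edgeR adjusted p = 1.73e-05) without overlap. The call of Cxcr5 was lost without any one of C3 to C8 and T1 to T4, at an edgeR adjusted p of up to 0.133. Among 7 tested transcription factors, Pou2f2 and Ikzf3 were called higher. Of 5 tested plasma cell genes, edgeR and DESeq2 called 0, and 1 was lower at an unadjusted p under 0.05, while Tnfrsf17, which marks plasma cells, had 0 counts in all libraries. Of 4 tested pre-B genes, Vpreb1, a surrogate light chain gene, was called higher, at means of 0.508 and 0.893 CPM (edgeR adjusted p = 0.0269), a call lost without any one of C3, C5, T6, T7 and T8 (up to 0.0588). Of the 10 MHC class II genes, which B cells, dendritic cells and macrophages express, H2-Ob and H2-Oa were called higher. The classical chains were not called, with H2-Aa at 15.3 ± 9.78 and 10.2 ± 3.26 CPM (edgeR adjusted p = 0.157), and the median of the list was a log2 fold change of -0.14. At an unadjusted p under 0.05, 2 of the list were higher and 2 lower, and H2-Ab1 and Cd74 were called lower where C1 or C2 was left out.

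**Figure D4:**
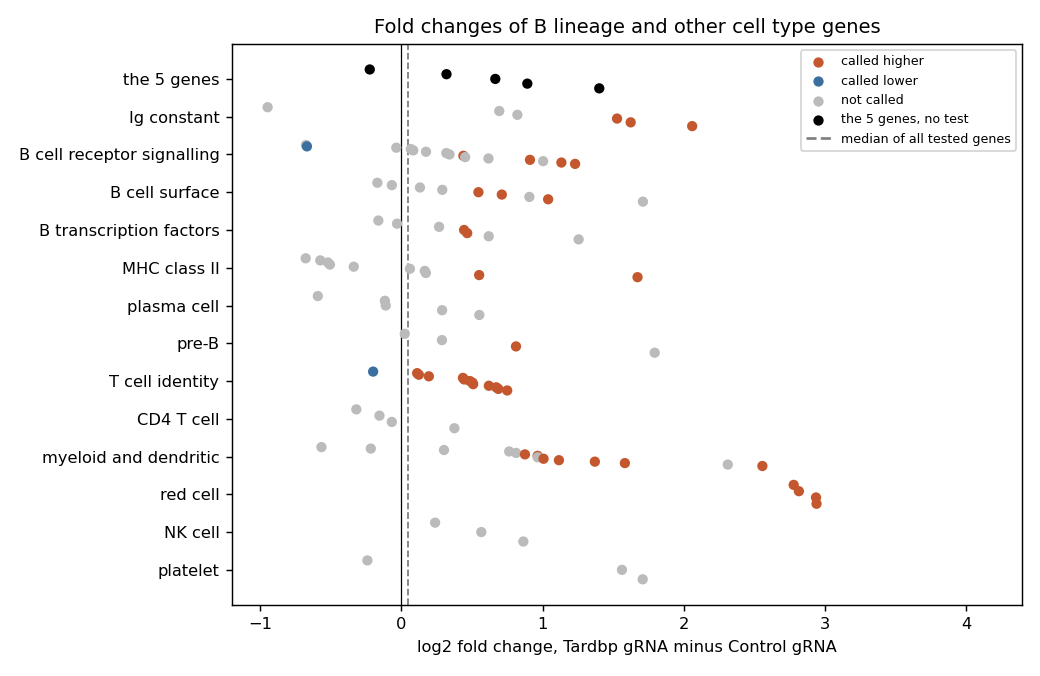
Log2 fold change (Tardbp gRNA minus Control gRNA, 8 libraries each) of every tested gene of the lists, coloured by its edgeR call at an adjusted p under 0.05, with the 5 genes in black and untested. The dashed line marks the median of all tested genes (0.05), and the T cell, myeloid and red cell lists lie mostly to its right.

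Genes of the T cell and of other cell types moved between the groups as well. Of the 13 T cell identity genes, 12 were called higher and 1, Cd5, lower, and 9 did not overlap. Over all tested genes, 23.5% were called higher and 23.3% lower, and 6.61% were higher in Tardbp gRNA without overlap. The call of Cd5 was lost without any one of C3, C5 and T3. That of Lck was lost without any one of 12 libraries, at an edgeR adjusted p of up to 0.178. For Zap70 this held for 7 libraries, at up to 0.122. The median log2 fold change of the 13 genes was 0.49. Their summed level was 9484 ± 581 (8751 to 10337) CPM in Control gRNA and 13221 ± 992 (11604 to 14810) CPM in Tardbp gRNA. In Control gRNA, Ighm was 4.27 ± 0.414% of that sum (3.74 to 4.98), and in Tardbp gRNA 4.85 ± 0.232% (4.60 to 5.204), with overlap. As a ratio of CPM followed between groups and not a comparison of the levels per length, Ighm was 50.1 ± 10.3 and 48.2 ± 1.92% of Cd8b1.

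Of 14 tested genes of myeloid and dendritic cells, 7 were called higher (50%, against 23.5% of all tested genes). DESeq2 called 8 of the list higher and 1 lower. The edgeR calls of C1qb, C1qa and S100a8 were lost without any one of 13, 10 and 7 libraries. The summed level of the list ran from 43.6 to 77.7 CPM over the Control gRNA libraries and from 64.0 to 131 CPM over the Tardbp gRNA libraries. All 4 tested globin genes rose, and the red cell list summed to 0.442 to 17.5 CPM and 9.02 to 182 CPM. EdgeR called 0 of the tested genes of CD4 T cells, NK cells and platelets. At an unadjusted p under 0.05 these were 0, 1 and 2, all higher, and DESeq2 called 1 platelet gene higher. The part of these other cell types in the levels of the 5 genes was not tested.

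The likeness of other genes to the 5 genes was measured within groups, as the Pearson correlation, over the 16 libraries, of log2 CPM centred on each group's mean with the mean of the centred values of the 5 genes. The libraries share depth, sort and sequencing run, and the scarce genes weigh most in this mean because they vary most, so the values are a description. Of the 10 most alike genes, 9 are given here, Fcmr (0.88), Gm42047 and Ly6d (0.85 each), Cep57l1 (0.83), AC132253.6, Mfap1a and Gm4430 (0.80 each), and H2-DMb2 and Sirpb1a (0.79 each). Of these, Fcmr, which encodes a receptor for IgM, and Ly6d, a surface marker of early B cells, are B-lineage genes, and H2-DMb2 is an MHC class II gene. Without the libraries numbered 2, which lay farthest from the median, the correlation for Fcmr was 0.79, and its Spearman correlation over all 16 was 0.90.

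Among the 5 genes themselves the same correlation was highest for Cd79a with Ms4a1 (0.58) and Ighm with Ms4a1 (0.57), and lowest for Igkc with Cd79b (-0.15). The 4 libraries with the highest Ms4a1 were C4, T5, T6 and T7, from 0.910 to 2.22 CPM. For Ighm, T7 and T6 were the next highest of their group after T4, at 682.2 and 678.1 CPM. C4 had 409.3 CPM, close to its group's median of 406.3, and T5 was below its group's median. With the 13 T cell identity genes the median correlation was 0.53 for Cd79b and 0.40 for Ighm, positive for all 13 in both, and -0.30 for Igkc, positive for 1. These correlations within groups of 8 rest on small differences for Ighm, whose coefficient of variation was 6.55% in Control gRNA and 7.99% in Tardbp gRNA.

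**Figure D5:**
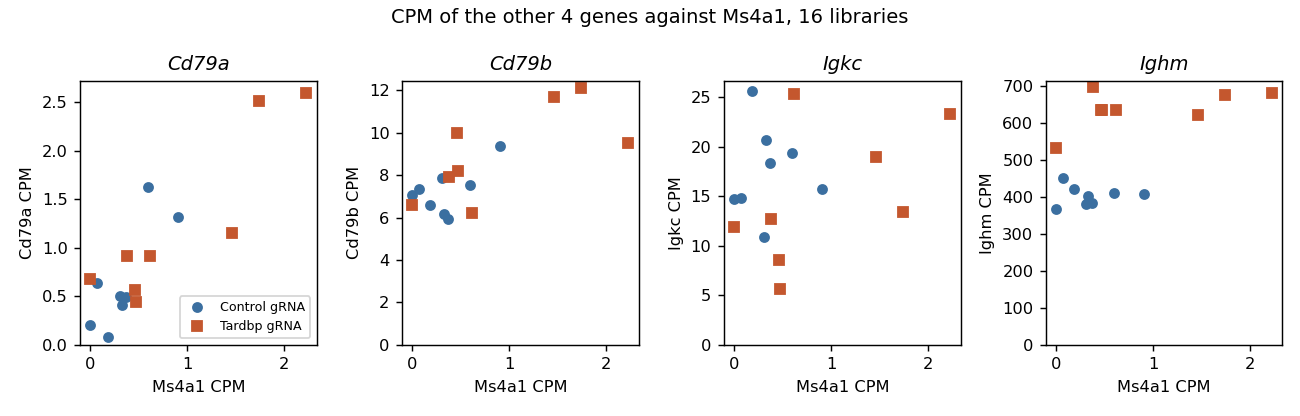
CPM of Cd79a, Cd79b, Igkc and Ighm against CPM of Ms4a1 in the 8 Control gRNA (circles) and 8 Tardbp gRNA (squares) libraries, on linear axes. Ighm stays between 367.0 and 452.3 CPM in Control gRNA and between 533.6 and 698.2 CPM in Tardbp gRNA over the range of Ms4a1 from 0 to 2.22 CPM.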

How the data were processed

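Unstranded SMART-Seq v4 and Nextera XT libraries, primed on poly(A) and amplified over 12 PCR cycles, had been prepared from the sorted cells and read as pairs. Per the labels and the submitters' processing notes, the authors aligned reads to mm10 with HISAT2 2.1.0 and made estimated counts per gene and transcript with StringTie 2.1.0. These deposited estimated counts were whole numbers and carried no normalization. PCR copies were counted. The deposited Psi values are a fraction per group from Whippet. The deposited tables also hold the authors' differences of Psi and probabilities, which were not used. In the count tables, 10 columns per table that match no sample here and 26345 lines that name no annotated gene, with 0.0836 to 0.132% of the counts, were left out. Names, exons and sequences are from GENCODE M21 (GRCm38), whose 55536 genes match the tables.

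Groups came from the labels. Genes were tested with edgeR 4.0.16 in R 4.3.3 (quasi-likelihood test, TMM, filterByExpr with minimum count 10, total 15 and proportion 0.7, 16 libraries, no covariate), two-sided, with Benjamini-Hochberg adjustment over 16650 genes and calls under 0.05. The log2 CPM used a prior count of 2. The edgeR fit was tested on simulated counts. Forms of Ighm were sorted by their annotated exons. The genes and lists were chosen with earlier results of these data known. Named are the 5 genes, list members, summed V, J and C genes with the 3 highest V genes, the 10 most alike genes and Tardbp, with 1 gene of the lists not reported here. No pair of libraries agreed within sampling noise (chi-square per degree of freedom 18.5 to 102 between libraries of a group). Alternatives were another scaling, no filter, DESeq2 1.42.0, a block by number, 2 covariates, subsets by number and each library left out in turn. Python 3.11.15 with SciPy 1.17.1 was used for the rest.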

Additional observations from a re-analysis of the deposited data

Results flagged for a closer look

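In groups of 8 libraries, a library was marked where its gap to the nearest other library was large against the range of its group. Of 24 groups examined, 5 had such a library, where chance marks about 1 in 20, or 1.2. Ighm was at 533.6 CPM in Tardbp gRNA replicate 2, with the other 7 libraries at 622.3 to 698.2 CPM. The summed Ighv genes were at 7.75 CPM in Tardbp gRNA replicate 1, against 0.877 to 4.11. The same library had 25.1 CPM of the summed Ighg, Igha and Ighe genes, against 0.105 to 1.11 in the others, with Igha alone at 18.8 CPM, and its Ighm (635.9 CPM) lay close to its group's median of 636.7 CPM. The summed Iglv genes were at 4.36 CPM in Control gRNA replicate 8, against 0 to 1.03, and at 3.22 CPM in Tardbp gRNA replicate 8, against 0.1002 to 1.36.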

How the results depend on the processing

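With log2 RNA concentration added as a covariate, 3 B lineage genes were called higher in place of 15, and of the other cell type lists 9 were called higher in place of 23 and 2 lower in place of 1, while the log2 fold change of Cd79a turned from 0.89 to -0.59. The ranges of that concentration do not overlap between groups, so this fit has little to separate them by. With the letter for sex as the covariate, 12 B lineage genes and 22 genes of the other lists were called higher. In libraries numbered 1 to 3 alone, 3 B lineage genes and 7 genes of the other lists were called higher, 0 genes of the other lists lower, and the log2 fold change of Ighm was 0.51. In those numbered 4 to 8, 5 B lineage genes were called lower. With library totals alone 0 genes of the other lists were called lower, and with DESeq2 2 were. Of all genes, edgeR called 7783, against 2697 with the covariate, 1696 in numbers 1 to 3 and 8226 with DESeq2. The cause of these differences was not tested, apart from the fewer libraries in the subsets.

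The library number as a replicate block gave 2 B lineage genes called lower in place of 1, Plcg2. Libraries of the same number deviated together only weakly (correlation -0.0048 to 0.16, with 2 of 8 Control gRNA libraries closest to their own number). These values do not settle whether the numbers pair the libraries. The block moved the calls over all genes to 7645.

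Leaving out each library in turn gave 12 to 15 B lineage genes called higher and 1 to 4 lower, and 18 to 27 genes of the other lists higher and 0 to 2 lower. The highest count of B lineage genes called lower, 4, was without Control gRNA replicate 1 or replicate 2. Counts of the lower calls of the other lists were 0 without Control gRNA replicate 3 or 5 or Tardbp gRNA replicate 3. The log2 fold change stayed at 0.62 to 0.70 for Ighm, 1.05 to 1.75 for Ms4a1, 0.62 to 1.20 for Cd79a, 0.22 to 0.37 for Cd79b and -0.40 to -0.13 for Igkc. Per base of transcript, the membrane form of Ighm had 66.4% in Control gRNA and 76.8% in Tardbp gRNA, and the secreted form 33.6 and 23.2%. Depth limits Ms4a1, with 0 to 172 counts per library, and Cd79a, with 6 to 224.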
